A study of Mus musculus with 8 samples.

Results

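The genes described here set the phosphorylation of the myosin regulatory light chain: the kinase gene Mylk, the phosphatase genes Ppp1cb, Ppp1r12a, Ppp1r12b and Ppp1r12c, the phosphatase inhibitor gene Ppp1r14a, and Rhoa, Rock1 and Dapk3, whose products act on the kinase and phosphatase balance. They were selected by name, with earlier results of these data known. These 9 of 10 listed genes were measured among 19938 genes, and the remaining one was not analysed here. Expression was measured on 8 Affymetrix arrays of primary aortic smooth muscle cells from C57Bl6 mice at passage 3 to 4, grown in DMEM containing 10% FCS for 24 h. Of these cultures, 4 were controls without addition and 4 received 100 nM jasplakinolide, a cell-permeable compound that binds and stabilises actin filaments. The labels name no vehicle and do not say whether replicates were separate cultures or animals, so p-values reflect only how much these samples vary, which could be technical.

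Smooth muscle contracts when calcium-bound calmodulin activates myosin light chain kinase, which phosphorylates the regulatory light chain and lets myosin pull on actin. Myosin phosphatase removes that phosphate. It consists of a catalytic subunit and a myosin-binding subunit that brings it to the filaments. Signalling from the small GTPase RhoA restrains the phosphatase and so raises contraction at a given calcium level, which is known as calcium sensitisation. The array reports the transcripts of these genes, not the phosphorylation of any protein.

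With jasplakinolide, the log2 level of the inhibitor gene Ppp1r14a rose from 8.31 ± 0.08 to 8.87 ± 0.07 (SD, n = 4 each), or 1.48-fold (limma adjusted p = 0.00275). It was the 1 measured member of 9 that passed the test (adjusted p under 0.05 over all genes). The kinase gene Mylk was 1.14-fold higher, with groups that did not overlap, and missed the threshold (adjusted p = 0.145). The catalytic subunit, the myosin-binding subunits, Rhoa, Rock1 and Dapk3 had log2 differences between -0.02 and 0.15, and none of them passed. Among 44 other measured genes of the pathway, the light chain gene Myl9 rose 1.82-fold, and it was the 1 gene of them that passed.

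The 1 member that rose stands against 0.436% of all genes that rose under the same rule, and 0 members fell against 0.336% of all genes. At an unadjusted p under 0.05 (limma), 3 members were higher and 0 lower. Of all 19938 genes, 830 were higher and 939 lower at that level (8.87% in either direction). Groups did not overlap, with jasplakinolide higher, for 2 of the 9 members and for 3.62% of all genes. The median log2 difference of the measured members was 0.06, beside 0.01 over all genes. A higher mean with jasplakinolide was found for 8 of the 9, and for 11240 of all 19938 genes. The interval of the log2 difference lay above 0 for 2 of the 8 members that did not pass, Mylk and Ppp1r12b, and covered 0 for the other 6. Across these 8, the 95% intervals of the limma fit reached from -0.11 to 0.30. SDs within a group ran from 0.01 to 0.11 log2 in control and from 0.01 to 0.10 with jasplakinolide.

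**Figure D1:**
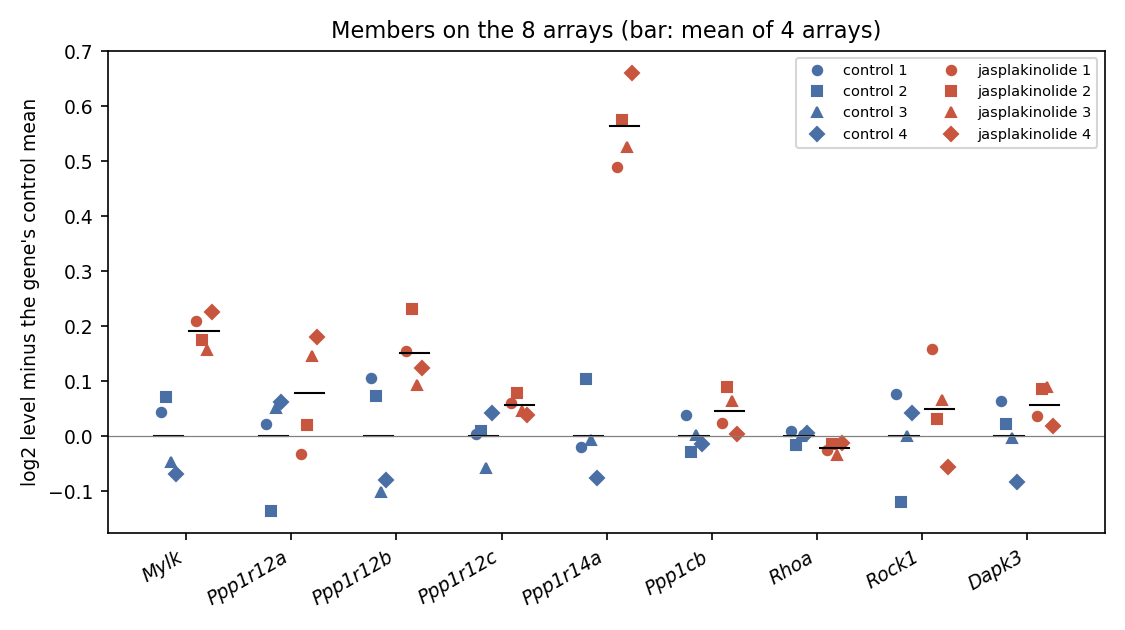
Log2 RMA level of the 9 measured members on each array, minus the gene's mean in control (vertical axis, log2). Blue points are the 4 control arrays, red points the 4 jasplakinolide arrays, marker shapes give the replicate number and bars the mean of 4 arrays. The jasplakinolide arrays lie clear of the controls for Ppp1r14a (mean difference 0.56) and, by less, for Mylk (0.19), while the groups of the remaining members overlap.

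The cultures carried transcripts of smooth muscle genes and also of genes listed as markers of endothelial cells, fibroblasts and macrophages. In control, Acta2 (smooth muscle alpha-actin) was at 13.41 ± 0.01, Cnn1 (calponin) at 11.14 ± 0.05 and Myh11 (smooth muscle myosin heavy chain) at 8.89 ± 0.12 log2 (SD, n = 4). The endothelial genes Cdh5 and Pecam1 were at 13.17 and 12.48 log2 on average in control, and Vwf and Cldn5 lower, at 8.08 and 7.78. The fibroblast gene Dcn was at 12.79 in control. Of the macrophage genes, Lyz2 was at 10.45 and Ptprc at 7.40. For scale, the 95th percentile of 1027 olfactory receptor genes lay between 6.60 and 6.94 on the 8 arrays. Every value of a measured member was above these (lowest 8.23), and of the marker genes Lum (4.72 in control) and Dpt (5.55) lay below them. Control 2 (12.1) and jasplakinolide 4 (19.4) stood at one end of the first principal component, which held 43.3% of the variance, opposite control 1 and control 3 (-13.4 and -14.3). The groups overlapped on this component. Control 2 and jasplakinolide 4 also had the highest array medians (7.38 and 7.39) and the highest olfactory receptor percentiles (6.87 and 6.94).

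The smooth muscle markers moved with the treatment: 8 of 11 rose and 0 fell, beside 0.436% and 0.336% of all genes. Their summed level was 14.89 to 14.91 log2 in control and 15.33 to 15.45 with jasplakinolide. Of 12 endothelial markers 1 fell and 0 rose, and their summed level was 15.48 to 15.54 in control and 15.32 to 15.47 with jasplakinolide. At an unadjusted p under 0.05 (limma), 6 endothelial markers were lower and 0 higher. Of all 19938 genes, 939 were lower and 830 higher at that level, 8.87% in either direction. None of 7 fibroblast markers passed (2 at an unadjusted p under 0.05), with a summed level of 12.67 to 13.13 in control and 12.32 to 12.65 with jasplakinolide. None of 8 macrophage markers passed (3 at an unadjusted p under 0.05), with 11.44 to 11.58 and 11.51 to 11.61. With the replicate number as a block, 3 endothelial markers passed as lower (Robo4, Tek and Kdr; limma adjusted p = 0.0205, 0.0354 and 0.0424), as did the fibroblast marker Dcn (0.0134) and the macrophage marker Cd68 (0.0424). Under this block 1.08% of all genes passed as lower. The part of these markers' cells in the results below was not tested. In a bulk culture, fewer cells of a type and less RNA per cell cannot be told apart.

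Ppp1r14a encodes CPI-17, a small protein that, once phosphorylated, for instance by protein kinase C, blocks the catalytic subunit of myosin phosphatase, and it is known as a smooth muscle protein of calcium sensitisation. Its log2 level was 8.29, 8.41, 8.30 and 8.23 on control arrays 1 to 4 and 8.80, 8.89, 8.84 and 8.97 on jasplakinolide arrays 1 to 4. The highest control, number 2, lay below the lowest treated array, number 1. The log2 difference was 0.56 ± 0.06 (SE; 95% interval 0.44 to 0.69). By p, Ppp1r14a stood at rank 18 of the 19938 genes, and by size of rise at rank 36. With any 1 array left out the difference stayed between 0.53 and 0.60, and it passed in all 8 such fits (limma adjusted p from 0.00417 to 0.0185). The 3 related inhibitor genes Ppp1r14b, Ppp1r14c and Ppp1r14d differed by -0.03 ± 0.04, -0.02 ± 0.08 and -0.003 ± 0.12 (SE). Means of Ppp1r14c (6.44 log2 in control) and Ppp1r14d (6.79) were at or near the olfactory receptor percentile given above, so a difference in them may not have been measurable.

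Mylk encodes myosin light chain kinase, in a short smooth muscle form and a long nonmuscle form, as well as telokin, and its 1 probe set does not tell these apart. The log2 level was 9.52, 9.54, 9.43 and 9.40 on control arrays 1 to 4 and 9.68, 9.65, 9.63 and 9.70 on jasplakinolide arrays 1 to 4. Every treated array was above every control array, by 0.09 log2 at the nearest. The log2 difference was 0.19 ± 0.05 (SE; 95% interval 0.08 to 0.30), and its limma adjusted p was 0.145 over all genes. It passed when the brighter 50% of genes were tested (adjusted p = 0.0453; 1.55% of those genes rose) or with array weights (0.0264; 1.12% of all genes rose). Over the 17 alternatives its adjusted p ran from 0.0154 to 0.414. The related kinase genes Mylk2, Mylk3 and Mylk4, best known from skeletal and cardiac muscle, differed by 0.13 ± 0.08, 0.05 ± 0.08 and 0.11 ± 0.08 (SE) and did not pass. Mylk3 (6.62 log2 in control) and Mylk4 (5.10) lay at or below the olfactory receptor percentile.

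The windows upstream of these genes' starts are shown for the member that rose and for the one next to it in size, Mylk. They hold the 250 bases before a RefSeq transcript start, on the strand of the gene, from GRCm38.p6. The Ppp1r14a window is chr7:29289070-29289319 (plus strand) and the Mylk window chr16:34784700-34784949 (plus strand). Capitals mark matches, on either strand, to GGGCGG, a GC box bound by Sp1-type factors, or to CATTCC, the MCAT element bound by TEAD factors.
Ppp1r14a: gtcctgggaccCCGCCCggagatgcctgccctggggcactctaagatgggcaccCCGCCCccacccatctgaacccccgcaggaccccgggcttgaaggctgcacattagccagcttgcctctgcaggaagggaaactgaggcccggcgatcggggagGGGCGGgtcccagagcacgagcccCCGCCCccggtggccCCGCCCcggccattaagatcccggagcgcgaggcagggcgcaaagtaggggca
Mylk: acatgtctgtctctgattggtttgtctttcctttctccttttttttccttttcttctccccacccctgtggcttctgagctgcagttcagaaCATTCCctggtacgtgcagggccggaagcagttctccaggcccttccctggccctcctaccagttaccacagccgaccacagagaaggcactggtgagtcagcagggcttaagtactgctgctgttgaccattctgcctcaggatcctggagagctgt
The Ppp1r14a window held 5 matches to GGGCGG and none to CATTCC, and the Mylk window 1 match to CATTCC and none to GGGCGG. No matches overlapped in either. Neither held a strict CArG box, the element bound by serum response factor, on either strand. Among 32851 windows of the same length for all genes of the table, 32.74% held GGGCGG, 12.64% CATTCC and 1.467% a CArG box. Of the 9 measured members, 8 were matched with 12 windows, of which 6 held GGGCGG, 3 CATTCC and 0 a CArG box. A match of letters is a description of the window and not a mapped binding site, and the Mylk entry of the table is 1 start of a gene with several.

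**Figure D2:**
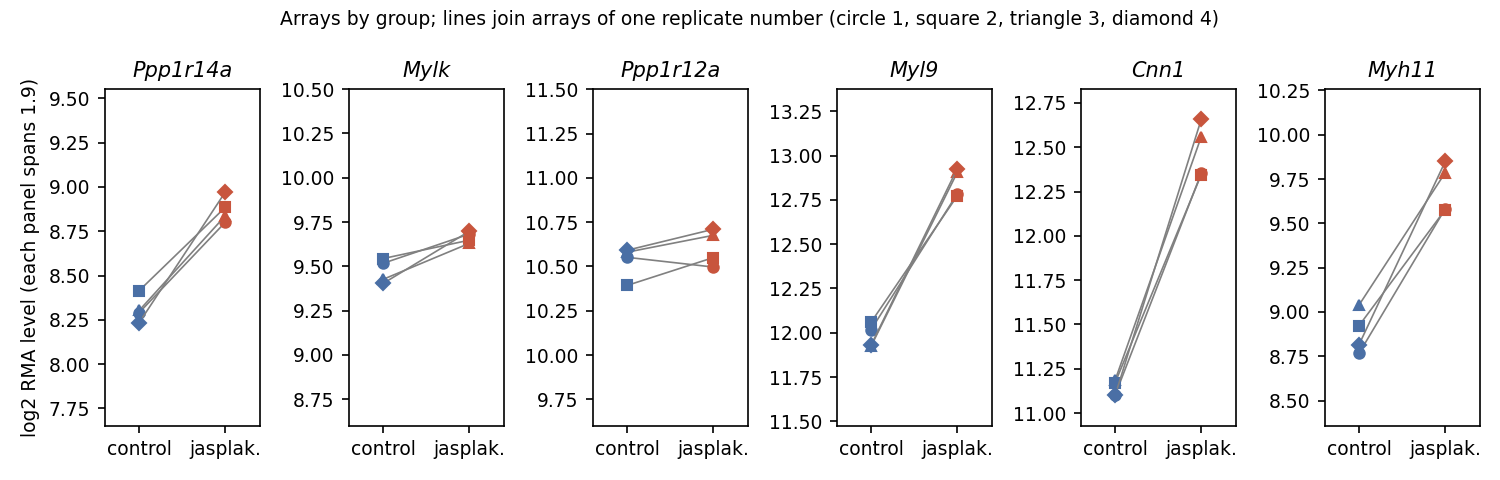
Log2 RMA levels (vertical axis, every panel spanning 1.9 log2 units) of Ppp1r14a, Mylk, Ppp1r12a, Myl9, Cnn1 and Myh11 in control (left, blue) and with jasplakinolide (right, red), lines joining arrays of 1 replicate number. All 4 lines rise for each gene except Ppp1r12a, for which 3 of 4 rise, and the lines of Mylk are flatter (0.19 on average) than those of Ppp1r14a (0.56), Myl9 (0.86), Myh11 (0.81) and Cnn1 (1.34).

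No transcript of a myosin phosphatase subunit passed the test in the main fit. Ppp1cb, the catalytic subunit found in myosin phosphatase, was at 12.36 ± 0.03 in control and 12.41 ± 0.04 log2 with jasplakinolide (SD, n = 4 each), a difference of 0.05 ± 0.04 (SE; 95% interval -0.05 to 0.14). Ppp1r12a encodes MYPT1, the myosin-binding subunit best known from smooth muscle. Its log2 level was 10.55, 10.39, 10.58 and 10.59 on control arrays 1 to 4 and 10.50, 10.55, 10.68 and 10.71 on jasplakinolide arrays 1 to 4. The groups overlapped, control 2 being the lowest array and jasplakinolide 1 below 3 of the controls. The difference was 0.08 ± 0.07 (SE; 95% interval -0.07 to 0.23; limma adjusted p = 0.852). Without control 2 and jasplakinolide 4 it was -0.00040 ± 0.06. Ppp1r12c, a further subunit of this family, differed by 0.06 ± 0.04 (SE), with 9.51 ± 0.04 in control and 9.56 ± 0.02 log2 with jasplakinolide.

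Ppp1r12b, which encodes MYPT2, a subunit best known from heart and skeletal muscle, had 7 probe sets. On the brightest, which stands for the gene, the log2 level was 9.51, 9.48, 9.31 and 9.33 on control arrays 1 to 4 and 9.56, 9.64, 9.50 and 9.53 on jasplakinolide arrays 1 to 4. Only jasplakinolide 3 fell inside the control range, just below control 1. The difference was 0.15 ± 0.06 (SE; 95% interval 0.01 to 0.29; limma adjusted p = 0.485). The other 6 probe sets, each tested on its own among 21789, differed by -0.06 to 0.07, with limma adjusted p of 0.845 or more. The 95% interval of each of these 6 covered 0, and the means of the dimmest ones, 6.93 and 6.78, lay within the range of the olfactory receptor percentile.

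**Figure D3:**
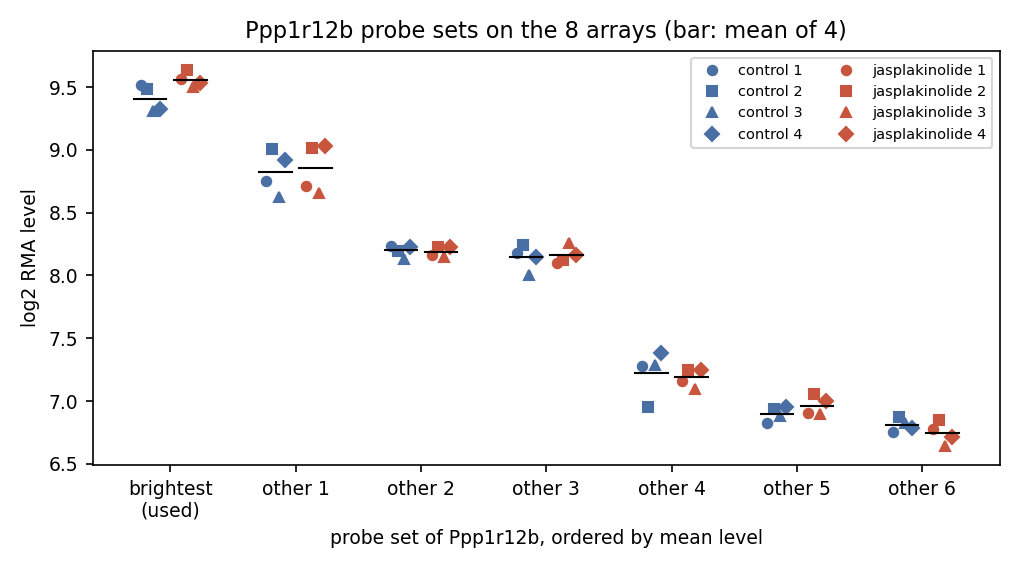
Log2 RMA level (vertical axis) of the 7 probe sets of Ppp1r12b, ordered by mean level, on the control (blue) and jasplakinolide (red) arrays, with marker shapes for the replicate number and bars for the mean of 4 arrays. The brightest probe set differs by 0.15 between the groups, and in the other 6 the groups lie over each other (-0.06 to 0.07).

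The 10 other genes of phosphatase subunits, inhibitors and partners had a median log2 difference of -0.01, and none passed. Of the 10, 1 had an unadjusted p under 0.05 (limma), beside 8.87% of all genes. The largest differences among them were those of Pawr, the gene of Par-4, which is known to bind MYPT1, at 0.16 ± 0.05, and Ppp1r16b, the gene of the phosphatase-targeting protein TIMAP, at -0.13 ± 0.09 (SE). Without jasplakinolide 4 the Ppp1r16b difference was -0.047. For Pawr the groups did not overlap. The other catalytic subunits of the same phosphatase type, Ppp1ca and Ppp1cc, differed by 0.04 ± 0.04 and -0.08 ± 0.04, and Mprip, which links MYPT1 to actin and RhoA, by -0.01 ± 0.04 (SE).

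Rhoa, the small GTPase at the head of the calcium sensitisation pathway, had the smallest spread of the members. It was at 13.38 ± 0.01 in control and 13.36 ± 0.01 log2 with jasplakinolide (SD, n = 4 each), a difference of -0.02 ± 0.04 (SE; 95% interval -0.11 to 0.06). Its dimmer probe set differed by -0.002 ± 0.04. Rock1 was at 10.53, 10.33, 10.45 and 10.49 log2 on control arrays 1 to 4 and at 10.61, 10.48, 10.52 and 10.40 on jasplakinolide arrays 1 to 4. The groups overlapped, and each group's lowest array was control 2 or jasplakinolide 4, the pair at one end of the first principal component. The difference was 0.05 ± 0.06 (SE; 95% interval -0.09 to 0.19). It ran from 0.010 without control 2 to 0.085 without jasplakinolide 4. Dapk3, which encodes the zipper-interacting protein kinase, known to phosphorylate both the light chain and myosin-binding subunits, was at 9.86 ± 0.06 and 9.92 ± 0.04 log2 (SD, n = 4 each), a difference of 0.06 ± 0.05 (SE).

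Of 15 measured genes of the RhoA cycle, which include exchange factors and GTPase-activating proteins, none passed. An unadjusted p under 0.05 (limma) was found for 2 of the 15, beside 8.87% of all genes. The median log2 difference of the 15 was 0.001. The largest differences were those of Rnd3, at 0.19 ± 0.06, and Rnd1, at 0.18 ± 0.07 (SE). The treated arrays of Rnd3 (10.95 to 11.14) lay above its controls (10.78 to 10.91), and those of Rnd1 overlapped with its controls. The RhoA exchange factor genes Arhgef1, Arhgef11 and Arhgef12 differed by -0.09 ± 0.05, 0.03 ± 0.06 and 0.02 ± 0.05 (SE). Of 4 measured kinases upstream of CPI-17 or the phosphatase, none passed and 1 had an unadjusted p under 0.05 (limma, 8.87% of all genes). These kinases had Prkca, of protein kinase C alpha, at 0.15 ± 0.05, and Prkcd, of protein kinase C delta, at -0.03 ± 0.05 (SE), as their largest differences.

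The substrate side held the other call. Myl9, which encodes the regulatory light chain of smooth muscle myosin, was at 12.02, 12.06, 11.92 and 11.93 log2 on control arrays 1 to 4 and at 12.78, 12.77, 12.91 and 12.93 on jasplakinolide arrays 1 to 4. All treated arrays were above all controls, by 0.71 at the nearest. It rose by 0.86 ± 0.06 (SE; limma adjusted p = 0.000263) and passed in all 17 alternatives. Myl12b, a regulatory light chain found also outside muscle, lay lower on all treated arrays (11.73 to 11.96 against 12.04 to 12.09), with a difference of -0.20 ± 0.06 (SE; limma adjusted p = 0.235), while Myl12a differed by 0.08 ± 0.05. Myl6, a further light chain gene, was higher on all treated arrays, by 0.16 ± 0.04 (SE; limma adjusted p = 0.136). The calmodulin genes Calm2 and Calm3 differed by 0.15 ± 0.06 and 0.06 ± 0.04 (SE), and neither passed. Of the 6 measured light chain and calmodulin genes, 3 were higher and 1 lower at an unadjusted p under 0.05 (limma), beside 8.87% of all genes in either direction. Groups did not overlap for 3 higher and 1 lower gene, beside 3.62% and 3.29% of all genes.

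Of 9 other kinases that act on the light chain or its phosphatase, none passed. An unadjusted p under 0.05 (limma) was found for 3 of the 9, beside 8.87% of all genes. Cit, the gene of citron kinase, a RhoA-bound kinase of cytokinesis, was at 8.60 ± 0.03 in control and 8.33 ± 0.11 log2 with jasplakinolide (SD, n = 4 each), a difference of -0.27 ± 0.06 (SE; limma adjusted p = 0.0802). With the replicate number as a block it passed as lower (adjusted p = 0.0410). Ilk, of integrin-linked kinase, was at 11.87 ± 0.01 and 12.12 ± 0.10 log2, a difference of 0.24 ± 0.05 (SE; limma adjusted p = 0.0931).

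Over all 44 other pathway genes, 1 rose and 0 fell (limma), beside 0.436% and 0.336% of all genes. With the replicate block 1 rose and 1 fell, where 0.813% of all genes rose and 1.08% fell. At an unadjusted p under 0.05 (limma), 9 were higher and 2 lower, beside 830 and 939 of the 19938 genes. Groups did not overlap for 9 higher and 2 lower genes, beside 3.62% and 3.29% of all genes. The median log2 difference of the 44 was 0.01, as over all genes.

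**Figure D4:**
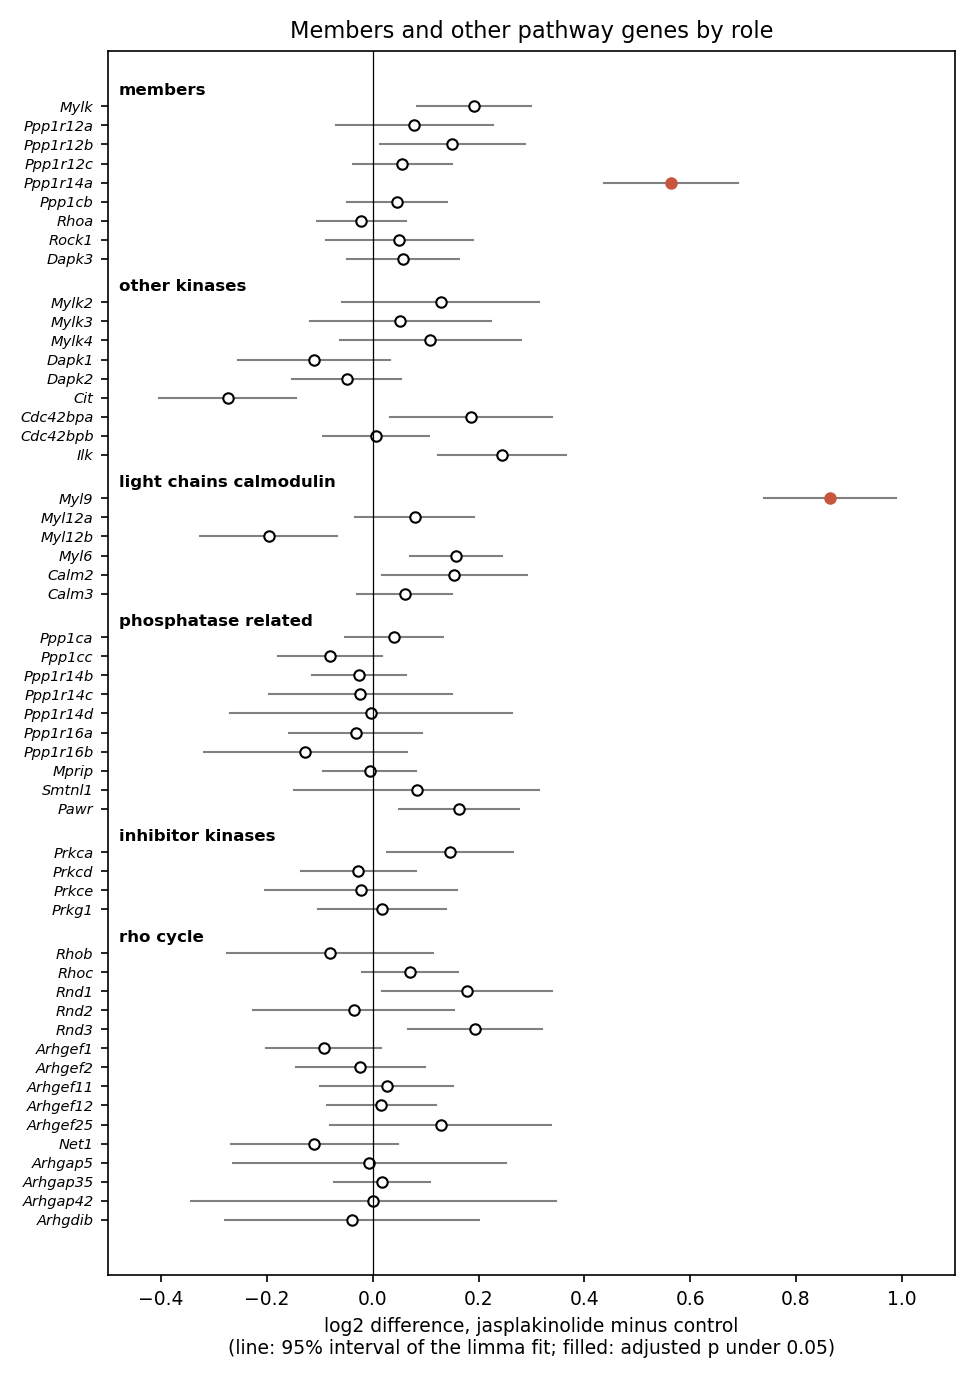
Log2 difference, jasplakinolide minus control (horizontal axis), of the 9 measured members and the 44 other pathway genes by role, with the 95% interval of the limma fit; filled points have an adjusted p under 0.05. Ppp1r14a (0.56) and Myl9 (0.86) stand to the right of the rest, whose differences lie between -0.27 (Cit) and 0.24 (Ilk).

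The members were also set against each other, by the log2 difference between 2 genes on each array. This compares their changes and not their levels. Ppp1r14a had the largest difference of the members on these same arrays. The pairs with it share its values and are no separate support for its rise. In all 8 pairs with Ppp1r14a, its gain exceeded that of the partner on every treated array as against every control array, by 0.37 ± 0.04 for Mylk to 0.58 ± 0.05 for Rhoa (SE, n = 4 each). The two-sided exact permutation p was 0.0286, the smallest that 4 against 4 arrays allow. After Benjamini-Hochberg adjustment over all 36 pairs it was 0.0791, and no pair passed. With this smallest p, no pair could pass unless most of the 36 reached it. The adjusted test could thus not decide on a single pair, whatever its size. Among the 28 pairs without Ppp1r14a, groups did not overlap in 5, which included Mylk against Rhoa (0.21 ± 0.04), Dapk3 (0.13 ± 0.04) and Ppp1r12c (0.14 ± 0.04). Each of the 5 pairs held Mylk or Rhoa, so they are not separate results. The share of such pairs over all genes was not computed. The gain of Mylk over Ppp1r12a was 0.11 ± 0.09 (SE), with overlapping groups.

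Members varied together to unequal degrees within the groups. Of the 36 pairs, Ppp1r14a and Rock1 had the lowest correlation of deviations from the group means, at -0.93 over 8 arrays, and -0.69 over 6 without control 2 and jasplakinolide 4. In both groups the array highest in Ppp1r14a was the lowest in Rock1, namely control 2 and jasplakinolide 4. Mylk and Ppp1r12b had the highest, at 0.73 (0.82 over 6 arrays). The remaining pairs lay between these over 8 arrays, with a median over all pairs of 0.04. Other pairs moved more without control 2 and jasplakinolide 4. Ppp1r14a and Ppp1cb went from -0.35 to 0.83, the highest over 6 arrays, and Mylk and Ppp1r14a from 0.64 to 0.14. Control 2 and jasplakinolide 4 are also the arrays at one end of the first principal component, and the correlations describe 8 arrays only.

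The genes whose level followed Ppp1r14a most closely over the 8 arrays were Creb3 (Pearson r = 0.992), a transcription factor of the endoplasmic reticulum membrane, Popdc2 (0.987), a Popeye-domain gene of muscle, and the RIKEN transcript 4930595M18Rik (0.987). Popdc2 rose by 1.33 ± 0.10 (SE; limma adjusted p = 0.000953), and Creb3 differed by 0.21 ± 0.04 (adjusted p = 0.0646). The control arrays of Popdc2, at 6.55 to 6.78 log2, were at or near the olfactory receptor percentile, so the size of its rise may not be exact. The RIKEN transcript, at 4.84 to 4.99 log2, lay below the olfactory receptor percentile. Those closest to Mylk were Lhx6 (r = 0.983), a LIM-homeobox gene, Igfbp2 (0.982), an insulin-like growth factor binding protein, and Usb1 (0.973), an RNA-processing enzyme. Lhx6 rose by 0.41 ± 0.07 (SE; limma adjusted p = 0.0315; 0.0555 with the replicate block) and Igfbp2 by 0.63 ± 0.10 (adjusted p = 0.0312). With single arrays removed, Lhx6 passed only without control 2, and Igfbp2 only without control 1 or control 2. With r above 0.9 there were 168 genes for Ppp1r14a and 94 for Mylk, all over the same 8 arrays, which include the difference between the groups.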

How the data were processed

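The deposited values are log2 expression levels per probe set, which the authors made in Affymetrix Expression Console by RMA (per the submitters' processing notes, without versions). They ran from 2.29 to 14.2 over 35556 probe sets, with array medians of 7.30 to 7.39. The platform annotation gave 1 gene symbol to 21789 probe sets, several to 1621 and none to 12146; 21698 matched the RefSeq gene table by identifier, which changed 0 symbols. Each gene was represented by its probe set of highest mean, with no filter on dim genes. The number of arrays, 4 a group, limits the precision.

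The comparison used limma 3.58.1 (R 4.3.3; lmFit and eBayes, two-sided, 6 residual and 3.43 prior degrees of freedom), adjusted by Benjamini-Hochberg over all genes. The fit was tested on simulated data of the 19938 genes, where it called 23.4% of known log2 differences of 0.25, 77.1% of those of 0.5 and 98.5% of those of 1. For a gene picked at random, most changes of the size of a member that did not pass would thus be missed. The simulated noise was independent between genes and arrays, without a shared array component or pairing. These shares are therefore not the power for the members themselves. Summed marker levels are log2 of the sum of unlogged values. Members and lists were chosen with earlier results of these data known; the 36 member pairs and the correlations among members were added after values were seen. All measured members are named, other pathway genes past the test or with the 2 largest differences in each role, and the 3 genes closest to Mylk and to each member that passed. Further genes were named for their role after their values were seen.

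After the group means were subtracted, all 4 same-numbered pairs of arrays correlated, at 0.24 to 0.56 (other pairs at -0.62 to 0.52). This evidence comes from the data alone, its ranges overlap, and the labels state no pairing. Whether replicate numbers pair the samples was thus left undecided. The fit without the replicate block was kept as the main one, and the exact permutation test also ignored replicate numbers. Calls that turn on the block are given below. Alternatives were the block, the brighter 50% of genes, median centring, quantile normalization once more, array weights, an intensity trend with a robust prior, averaging the probe sets of a gene, each array left out, and, chosen after seeing the data, control 2 and jasplakinolide 4 left out together and the block with the intensity trend and robust prior. Python 3.11.15 with matplotlib 3.10.9 drew the figures.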

Additional observations from a re-analysis of the deposited data

How the results depend on the processing

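Ppp1r14a and Myl9 passed in all 17 alternatives. The count of members that rose was 1 in all but the following settings. It was 2 among the brighter 50% of genes and with array weights (Mylk joining in both), where 1.55% of those genes and 1.12% of all genes rose. It was 3 in the replicate block with an intensity trend and robust prior (Mylk and Ppp1r12b joining), where 2.91% of all genes rose. No alternative called a member lower. The other pathway genes that rose numbered 3 among the brighter 50% (1.55% of those genes rose), with the intensity trend and robust prior (0.968% of all genes), and with array weights (1.12%). With the block, trend and robust prior 10 rose, beside 2.91% of all genes. Those that fell numbered 1 with the replicate block alone (1.08% of all genes fell), after quantile normalization once more (0.727%), among the brighter 50% (1.41% of those genes) and with array weights (1.17%). With the block, trend and robust prior 2 fell, beside 3.75% of all genes, against 0 in the other settings. The paired fit (replicate block) left 1 member and 1 other pathway gene as risen and, besides Cit, Lhx6 and the markers Tek, Kdr, Dcn and Cd68, changed no call of a named gene. Without control 2 and jasplakinolide 4, Ppp1r12a was at -0.00040. Prkcd ran from -0.043 to 0.005 with 1 array left out, turning sign without jasplakinolide 4 (0.00475). Acta2, at 0.25 ± 0.04 (SE), lost its call without any single array (0.23 to 0.27; limma adjusted p from 0.0593 to 0.128), after median centring (0.107) and without control 2 and jasplakinolide 4 (0.0902). The cause of these differences was not tested. Signal near background limits the genes dimmer than the olfactory receptor percentile.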
